A study of Mus musculus with 48 samples.

Results

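The 9 genes described here, ACTA2, ACTG2, TAGLN, CNN1, CNN2, TPM1, TPM2, VCL and VIM, encode the contractile and fibroblast cytoskeleton. They were followed through the conversion of 3T3-L1 cells into fat cells, with and without an siRNA against PPARγ. They were taken as every probe carrying 1 of these symbols, which gave 13 probes of the 24613 probes (18991 symbols) on the Illumina mouse array. 3T3-L1 is an established line of mouse fibroblasts that store fat once treated with a hormone cocktail, and PPARγ is the nuclear receptor that drives this conversion. All cells were transfected before differentiation, either with a non-targeting siRNA pool (control siRNA) or with an siRNA pool against PPARγ (PPARγ KD). Both groups then received isobutylmethylxanthine and dexamethasone from day −2 to day 0 and insulin with rosiglitazone, a PPARγ ligand, from day 0 to day 2, so that the control arrays differ from the KD arrays in the siRNA alone. RNA was taken on 8 days, from 2 days before rosiglitazone (day −2) and then daily from day 0 to day 6, in 3 independent biological replicates per siRNA and day, which makes 48 arrays. Every value comes from this 1 cell line and from whole cultures, in which fewer cells of a type and less RNA per cell cannot be told apart.

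Smooth muscle α-actin (ACTA2) and γ-actin (ACTG2) build the contractile filaments of smooth muscle and of activated fibroblasts. Tropomyosins (TPM1, TPM2) lie along the actin filament and steady it, while calponins (CNN1, CNN2) and transgelin (TAGLN) bind actin and bundle it or temper its use by myosin. Vinculin (VCL) ties filaments to the membrane at adhesions, and vimentin (VIM) forms the intermediate filaments of fibroblasts. Many of these genes are classical targets of serum response factor, whose cofactors sense the state of actin. A fibroblast that becomes a fat cell is known to take its stress fibres apart and to round up.

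Promoters are shown because the serum response factor site, the CArG box (CC and GG on either side of a run of A and T bases), is the element these genes are best known for. RefSeq promoters (GRCm38.p6, from 250 bases before to 50 bases after the start of transcription) were found for 7 of the 9 genes; Tagln and Actg2 were not among them. Capitals mark a CArG box or a run that misses it by 1 base. Acta2 stands for the genes that changed most, Cnn2 and Vcl for those with the full box, and Vim for a gene that passed no test.
Acta2, chr19:34255324-34255623, minus strand: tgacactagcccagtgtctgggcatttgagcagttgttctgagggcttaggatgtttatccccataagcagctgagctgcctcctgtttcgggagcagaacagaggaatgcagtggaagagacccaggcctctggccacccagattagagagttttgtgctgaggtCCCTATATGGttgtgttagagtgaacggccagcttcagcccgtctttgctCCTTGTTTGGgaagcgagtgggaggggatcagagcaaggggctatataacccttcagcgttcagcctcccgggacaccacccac
Cnn2, chr10:79988350-79988649, plus strand: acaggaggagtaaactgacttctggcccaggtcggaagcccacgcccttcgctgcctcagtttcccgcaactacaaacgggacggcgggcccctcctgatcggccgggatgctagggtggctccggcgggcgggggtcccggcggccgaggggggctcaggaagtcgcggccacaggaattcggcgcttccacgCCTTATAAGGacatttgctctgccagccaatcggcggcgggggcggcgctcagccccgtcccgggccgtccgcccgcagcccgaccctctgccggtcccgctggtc
Vcl, chr14:20929148-20929447, plus strand: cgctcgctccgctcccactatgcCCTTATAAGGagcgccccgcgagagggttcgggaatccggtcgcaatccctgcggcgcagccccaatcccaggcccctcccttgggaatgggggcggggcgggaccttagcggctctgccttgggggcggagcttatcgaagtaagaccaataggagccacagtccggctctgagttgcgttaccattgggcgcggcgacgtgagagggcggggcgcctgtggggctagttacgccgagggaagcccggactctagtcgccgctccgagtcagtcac
Vim, chr2:13574061-13574360, plus strand: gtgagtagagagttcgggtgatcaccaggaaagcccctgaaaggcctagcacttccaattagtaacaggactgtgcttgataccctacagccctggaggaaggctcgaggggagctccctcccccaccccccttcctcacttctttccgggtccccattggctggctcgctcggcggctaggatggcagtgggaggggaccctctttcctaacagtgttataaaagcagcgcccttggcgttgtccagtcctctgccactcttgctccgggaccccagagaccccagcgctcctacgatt
The full box was present in 2 of the 7 promoters, Cnn2 and Vcl, and in 1.63% of the 32851 promoters of the same length. Both copies read CCTTATAAGG, beginning 56 bases before the start in Cnn2 and 227 bases before it in Vcl. The Acta2 promoter held 2 runs that miss the box by 1 base, CCCTATATGG and CCTTGTTTGG, beginning 84 and 34 bases before the start. Such near matches were present in 19.9% of all promoters, in Tpm1 as well as Acta2, and neither kind was present in Vim, Tpm2 or Cnn1. The cAMP response element (TGACGTCA, 1.79% of promoters), the glucocorticoid response element (AGAACANNNTGTTC, 0.0487%) and the direct repeat bound by PPARγ with RXR (AGGTCANAGGTCA, 0.0396%), searched on both strands, were in none of the 7. These are matches of letters and were not set against binding data.

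Signals are given as log2 of the background-corrected and scaled bead intensity. A probe was called where limma's p, Bonferroni adjusted over the 24613 probes, was at most 0.05, and adjusted p-values below are of this kind. Of the 13 probes, 9 exceeded background on each of the 48 arrays (detection p below 0.01). These were 3 probes of ACTA2 and 1 each of ACTG2, CNN2, TPM1, TPM2, VCL and VIM. The second CNN2 probe, 5270446, was above background on 37 arrays, TAGLN on 19, the second TPM2 probe on 1 and CNN1, the calponin of differentiated smooth muscle, on 0. In all, 11 of the 13 probes and 10567 of all probes were above background on at least 3 arrays. Pparg itself was 2.34 lower (SE 0.04, adjusted p = 9.48e-34) on the log2 scale in the PPARγ KD at its brightest probe. That probe was still above background on all 24 KD arrays, so the knockdown was partial. Pparg probe 1990168 was 2.51 lower, above background on 24 control and 5 KD arrays. Pparg probe 2680603 was 1.21 lower, above background on 8 control and 0 KD arrays. The 16 arrays of replicate 3 stood apart, with 33.4% to 35.4% of probes above background against 36.8% to 40.4% on the others, and results that rest on them are given below with and without them.

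The clearest event in the time course came before rosiglitazone was added. Between day −2 and day 0, both smooth muscle actins, both tropomyosins and calponin 2 fell under either siRNA. ACTG2 measured 11.81, 11.78 and 12.26 in control replicates 1, 2 and 3 on day −2 and 7.44, 7.44 and 7.76 on day 0. The arrays of the 2 days lay far apart, a fall of 21.2-fold (log2 difference −4.40, SE 0.11). ACTA2 probe 60008 stood at 11.74, 11.65 and 11.36 on day −2 and at 7.22, 7.52 and 7.30 on day 0, and fell 18.9-fold (−4.24, SE 0.15). The other ACTA2 probes fell by 4.11 (probe 1230082) and by 2.51 (probe 3390619). Probe 3390619 is the brightest of the 3, with deposited intensities of 6347 to 56118 where the highest of any probe was 67066.3, and a part of the scanner's upper limit in its smaller change was not tested.

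TPM1 was at 13.25, 12.96 and 13.16 on control day −2 and at 10.81, 10.45 and 10.79 on day 0 (−2.44, SE 0.09). TPM2 probe 520735 went from 12.17, 12.05 and 11.90 to 10.18, 10.09 and 9.88 (−1.99, SE 0.07). CNN2 probe 2230433 went from 13.21, 13.10 and 12.44 to 11.02, 11.07 and 10.25 (−2.14, SE 0.10), with replicate 3 the lowest on both days. In each of these genes every day −2 array lay above every day 0 array, and the share of all probes without overlap between these days was not counted. VCL, which links filaments to adhesions, fell by 0.85 (SE 0.11), the least of the probes called, and its call was lost without replicate 1 (adjusted p = 0.508) or without replicate 3 (0.0558). TAGLN was above background on all 3 control arrays of day −2 and on none of day 0, which makes it at least 1.15-fold lower (adjusted p = 2.55e-05); this call was lost without replicate 1 (0.15).

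In all, 10 of the 13 probes were called lower on day 0 than on day −2 under control siRNA, against 5.04% of all probes, with a median difference of −2.03 for the 13 and 0.08 for all probes. Of 10 fibroblast markers, 6 were called lower and 1 higher over the same step (median −0.98). LYZS (−2.17) and CD14 (−1.24), the only 2 of 7 macrophage markers above background on any array, were called lower too. So were SMTN (−0.80) and LMOD1 (−1.12), the only 2 of 8 smooth muscle markers above background on any array. The part of a changing mix of cells was not tested. Among the 13 probes, VIM, CNN1 and the second TPM2 probe were not called. VIM, the intermediate filament protein of fibroblasts, measured 15.06, 15.31 and 15.54 on day −2 and 15.20, 15.32 and 15.55 on day 0. Its deposited intensities were 26830 to 49678, and a part of the scanner's upper limit in its small changes was not tested. In the PPARγ KD, 9 of the 13 probes were called lower over the same interval, against 4.02% of all probes. ACTG2 fell by 4.26 and ACTA2 probe 60008 by 3.46 in the KD, while CNN2 probe 2230433 fell by 1.30 and TPM1 by 1.81. VCL differed by −0.55 there (SE 0.11, adjusted p = 0.28).

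**Figure D1:**
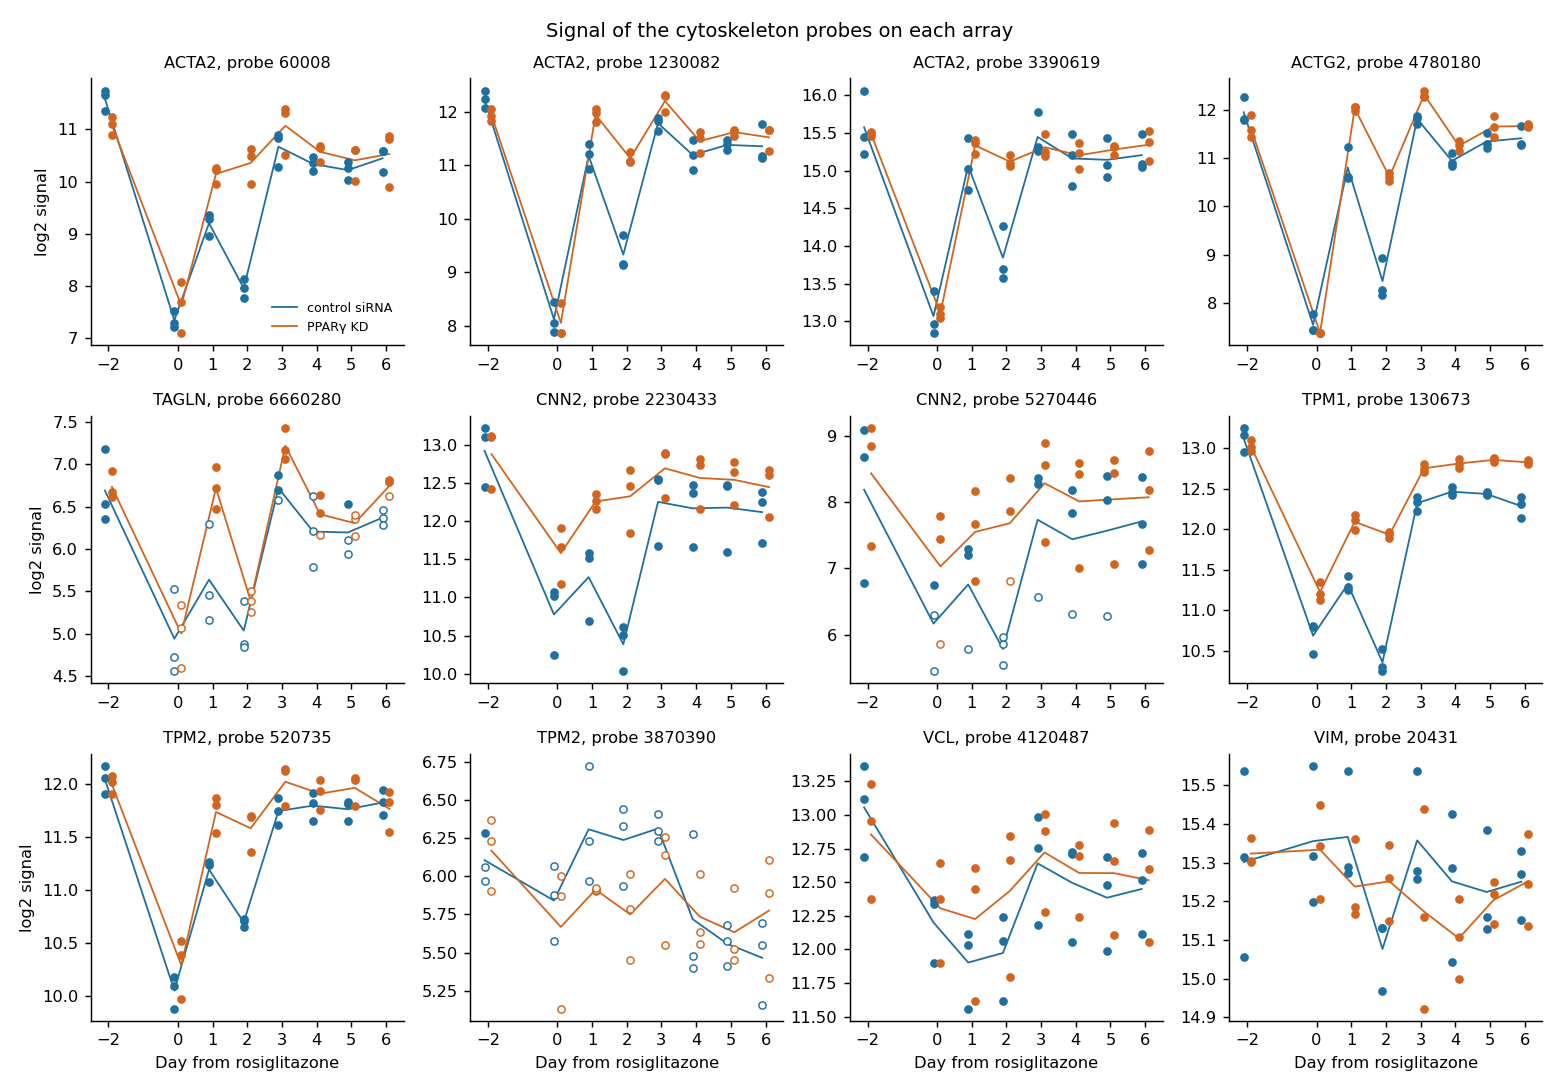
Log2 signal of 12 of the 13 probes (CNN1, above background on no array, is left out) on each of the 48 arrays against the day from rosiglitazone. Points are arrays, filled where the probe was above background, lines join the means of 3 arrays, and the vertical scale differs between panels; ACTA2, ACTG2, CNN2, TPM1 and TPM2 probe 520735 drop from day −2 to day 0, and control and KD part most on day 2.

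From day 0 on, the control cultures went through a brief return and a second low point. ACTG2 measured 10.61, 10.58 and 11.24 on control day 1. It was down at 8.26, 8.16 and 8.94 on day 2, then up at 11.88, 11.72 and 11.84 on day 3. Every array of day 2 was thus below every array of days 1 and 3, and the share of all probes separated in this way was not counted. The 3 steps of ACTG2 were 3.26 from day 0 to 1, −2.35 from day 1 to 2 and 3.36 from day 2 to 3 (SE 0.11 each). The comparisons of day 1 with days 0 and 2 were chosen after the day means were seen.

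ACTA2 kept the same order of days, with probe 60008 up by 1.86, down by 1.25 and up by 2.71. TPM1 rose by 0.64, fell by 0.97 and rose by 1.97, so that its lowest control mean was on day 2 (10.35) rather than day 0 (10.68). CNN2 probe 2230433 was likewise lowest on day 2, at 10.61, 10.52 and 10.04, after a fall of 0.88 from day 1. TPM2 probe 520735 rose by 1.14, fell by 0.50 and rose by 1.05. From day 1 to 2, 7 of the 13 probes were called lower against 1.71% of all probes; with replicate 1 or replicate 2 left out, 4 were called.

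On day 3 these genes came back together. Relative to day 2, 10 of the 13 probes were called higher under control siRNA, against 4.53% of all probes, with a median of 1.69 for the 13 and 0.01 for all probes. Beside them 7 of the 10 fibroblast markers were called higher (median 0.91), led by LUM (1.79). LYZS (1.86) and CD14 (1.36), the only 2 of 7 macrophage markers above background on any array, were called higher too. VCL rose by 0.67, a call lost without any 1 replicate (adjusted p = 0.0874 to 1). TAGLN, above background on no array of day 2 and on 2 of day 3, was at least 1.07-fold higher (adjusted p = 6.35e-05), a call lost without replicate 1 (0.202) or 2 (0.314). From day 3 to day 6 0 of the 13 probes were called under control siRNA by limma with Bonferroni adjustment, against 2.53% of all probes; 3 were lower at an unadjusted p under 0.05 and 2 with Benjamini-Hochberg adjustment.

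By day 6, 8 of 10 fat cell markers were called higher than on day −2 under control siRNA (median 3.93), and 6 of 10 in the PPARγ KD (median 1.36). Under control siRNA the cytoskeleton probes had come back to levels at or somewhat below those of day −2. All 3 ACTG2 arrays of control day 6 were at 11.27, 11.30 and 11.66, against 11.78 to 12.26 on day −2. On control day 6, 12 of the 13 differences from day −2 were below 0, with a median of −0.54. Of these, 3 were called lower, against 2.14% of all probes, where 10 were lower at an unadjusted p under 0.05 and 9 with Benjamini-Hochberg adjustment. The 3 called were ACTA2 probe 60008 (−1.14), TPM1 (−0.84) and CNN2 probe 2230433 (−0.80). This count depends on the arrays, with 1 probe called when replicate 1 is left out. In the PPARγ KD 0 of the 13 probes were called between these days by limma, against 4.4% of all probes (7 were lower at an unadjusted p under 0.05 and 4 with Benjamini-Hochberg adjustment), and TPM1 differed by −0.20 (SE 0.09). The change from day −2 to day 6 was not called different between the siRNAs for any of the 13 by limma, against 2.99% of all probes (5 had an unadjusted p under 0.05 and 2 passed with Benjamini-Hochberg adjustment; TPM1 had the lowest Bonferroni adjusted p, 0.226).

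Over the whole course, the F test between the 8 days called 10 of the 13 probes under control siRNA, against 23.5% of all probes. CNN1, VIM and the second TPM2 probe were not called. In the PPARγ KD it called 8 of the 13, against 16.5%, and here VCL (adjusted p = 0.451) and CNN2 probe 5270446 (0.41) were not called either.

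Actins, tropomyosins and calponin 2 were higher in the PPARγ KD than under control siRNA, and most so on day 2. On that day ACTG2 measured 8.26, 8.16 and 8.94 under control siRNA and 10.60, 10.53 and 10.70 in the KD, a difference of 4.46-fold (log2 2.16, SE 0.11, adjusted p = 3.22e-16). ACTA2 probe 60008 measured 7.97, 7.78 and 8.13 under control siRNA and 10.48, 10.63 and 9.96 in the KD, which is 5.28-fold (2.40, SE 0.15, adjusted p = 5.12e-14). The KD arrays were above the control arrays in both actins with no overlap. The other ACTA2 probes were 3.48-fold (1230082) and 2.42-fold (3390619) higher.

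CNN2 probe 2230433 stood at 10.61, 10.52 and 10.04 in control and 12.46, 12.67 and 11.84 in KD cultures of day 2, 3.83-fold apart (1.94, SE 0.10, adjusted p = 1.68e-16). Its second probe, above background on 2 KD arrays and no control array, was at least 2.09-fold higher, a call lost without replicate 2 (adjusted p = 0.28). TPM1 measured 10.30, 10.25 and 10.52 against 11.96, 11.94 and 11.89, 2.98-fold apart (1.58, SE 0.09, adjusted p = 1.29e-15). TPM2 probe 520735 measured 10.73, 10.71 and 10.65 against 11.68, 11.70 and 11.36, 1.85-fold apart (0.89, SE 0.07, adjusted p = 2.86e-10). In each of these genes all KD arrays lay above all control arrays.

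Altogether 8 of the 13 probes were called higher in the KD on day 2 and 0 lower by limma. At an unadjusted p under 0.05, and also with Benjamini-Hochberg adjustment, 9 were higher and 1 lower. The 1 lower was the second TPM2 probe, which was below background. The background is 4.74% of all probes called higher and 4.18% lower, and 20.5% of the probes above background on at least 3 arrays called in either direction. The median difference was 1.28 for the 13 and −0.12 for all probes, and the latter lay between −0.12 and 0.00 under the other scalings. Fibroblast markers moved the same way on day 2, with 6 of 10 called higher in the KD (PDGFRB 1.03, THY1 0.97, PDGFRA 0.92, DLK1 0.92, COL3A1 0.90 and DCN 0.84; median 0.87) and a summed signal of 15.57 to 15.78 in control and 16.35 to 16.53 in KD cultures. LYZS (1.25), CD14 (1.04) and SMTN (0.82) were called higher as well, and 8 of 10 fat cell markers were called lower (median −2.64). Only 2 of 7 macrophage markers and 2 of 8 smooth muscle markers were above background on any array. The part of a changing mix of cells in the result was not tested. Day 2 arrays of the 2 siRNAs did not overlap in 19.6% of all probes. VCL, at 12.24, 12.06 and 11.62 in control and 12.67, 12.84 and 11.80 in KD cultures, overlapped between the siRNAs (0.46, SE 0.11, adjusted p = 1). Its pairs of the same replicate number were all higher in the KD, by 0.43, 0.78 and 0.18 in replicates 1, 2 and 3. VIM differed by 0.17 (SE 0.09, adjusted p = 1), although its KD arrays (15.26, 15.15 and 15.34) were all above its control arrays (15.13, 14.97 and 15.13). TAGLN was above background on no array of either siRNA on day 2.

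The siRNAs, already apart in 5 probes on day 1, moved further apart in the step to day 2. ACTA2 probe 60008, which fell by 1.25 in control cells, changed by 0.21 (SE 0.15, not called) in the KD. CNN2 probe 2230433 changed by 0.07 and TPM1 by −0.16 in the KD, both not called. ACTG2 did fall in the KD, by 1.42, where in control cells it fell by 2.35, and TAGLN was at least 1.19-fold lower on day 2 than day 1 (adjusted p = 0.00919); 2 of the 13 probes were called lower in this step against 0.865% of all probes, and 1 when replicate 1 or 2 is left out. Tested directly, the siRNA difference was larger on day 2 than on day 1 for ACTA2 probe 60008 (by 1.46, adjusted p = 0.000786), CNN2 probe 2230433 (0.95, 0.00201), TPM1 (0.80, 0.00288) and ACTG2 (0.93, 0.0309), which is 4 of the 13 probes against 1.15% of all probes. This comparison was not among the planned tests, and day 2 is the day of the largest difference.

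**Figure D2:**
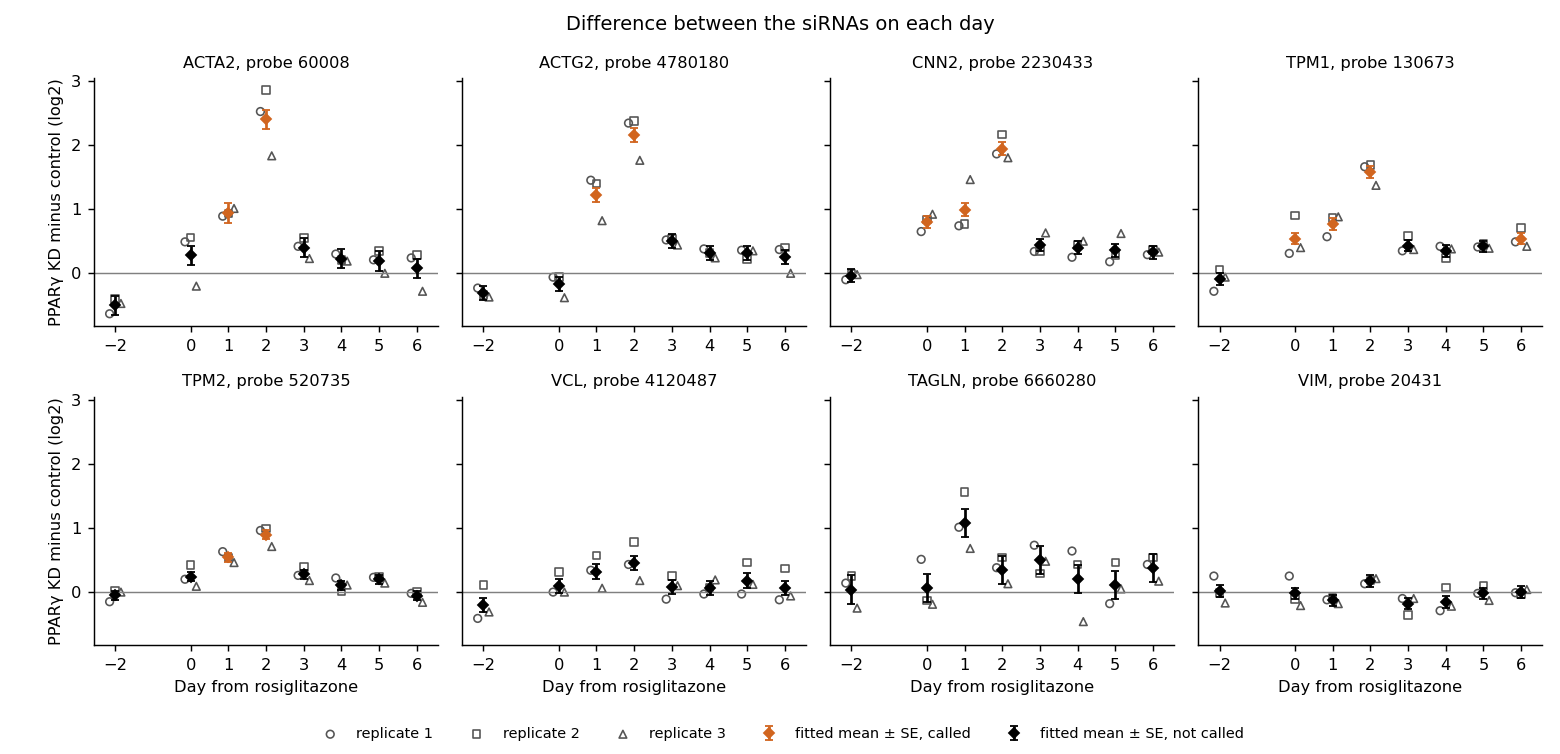
PPARγ KD minus control siRNA on the log2 scale against the day from rosiglitazone for 8 probes. ACTA2 is drawn by its dimmest probe, 60008, and each other gene by its brightest. The brightest ACTA2 probe, 3390619, differed by 1.28 on day 2. Open symbols are the differences between arrays of the same replicate number and diamonds the fitted mean ± SE, orange where called. The difference peaks on day 2 in ACTA2, ACTG2, CNN2, TPM1 and TPM2 and stays near 0 in VIM.

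Before day 2 fewer probes were called, and whether the genes differed in timing was not tested. On day −2 none of the 13 probes was called by limma, against 0.861% of all probes in either direction, and 8 of the 13 differences were below 0, 2 of them at an unadjusted p under 0.05 and 1 with Benjamini-Hochberg adjustment. ACTA2 probe 60008 measured 11.74, 11.65 and 11.36 in control and 11.11, 11.25 and 10.90 in KD cultures then (−0.50, SE 0.15, adjusted p = 1), a direction opposite to the later days and without overlap between the siRNAs. Day −2 arrays of the siRNAs did not overlap in 8.66% of all probes.

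On day 0, CNN2 probe 2230433 was higher in the KD, at 11.67, 11.90 and 11.17 against 11.02, 11.07 and 10.25 (0.80, SE 0.10, adjusted p = 3.63e-05). TPM1 was also higher, at 11.12, 11.35 and 11.19 against 10.81, 10.45 and 10.79 (0.54, SE 0.09, adjusted p = 0.00868). These were the 2 probes called of 13, against 1.67% of all probes called higher. ACTG2 at the same time stood at 7.38 on each of the 3 KD arrays and at 7.44, 7.44 and 7.76 on the control arrays (−0.17, SE 0.11, adjusted p = 1).

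On day 1, 5 of the 13 probes were called higher, against 1.42% of all probes, among them ACTG2 and 1 of the 3 ACTA2 probes. ACTA2 probes 1230082 and 3390619 were not called. The pairs of probe 3390619, the brightest, differed by 0.21, 0.63 and −0.02 in replicates 1, 2 and 3, with overlap between the siRNAs. ACTG2 was at 12.05, 11.98 and 12.06 in the KD and at 10.61, 10.58 and 11.24 in control cells (1.22, SE 0.11). The differences of the others were 0.99 for CNN2 probe 2230433, 0.94 for ACTA2 probe 60008, 0.77 for TPM1 and 0.54 for TPM2 probe 520735. TAGLN was at least 1.15-fold higher in the KD, on 3 KD arrays and no control array above background, and was not called (adjusted p = 0.348).

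After day 2 the differences became small. On days 3, 4 and 5 none of the 13 probes was called by limma, against 0.475%, 0.272% and 0.565% of all probes called higher. At an unadjusted p under 0.05, 8 were higher and 1 lower on day 3 and 4 were higher on each of days 4 and 5; with Benjamini-Hochberg adjustment 4, 2 and 2 were higher. ACTG2 on day 3 was at 12.40, 12.26 and 12.28 in the KD against 11.88, 11.72 and 11.84 (0.50, SE 0.11, adjusted p = 1), without overlap, as in 10.9% of all probes that day. The day 3 difference was smaller than that of day 2 in 7 of the 13 probes (1.15% of all probes), by 2.00 for ACTA2 probe 60008, 1.65 for ACTG2, 1.50 for CNN2 probe 2230433 and 1.14 for TPM1. Setting day 3 against day 2, the day of the largest difference, was not among the planned tests. On day 6 TPM1 alone was called, at 12.80, 12.85 and 12.82 in the KD and 12.31, 12.14 and 12.40 in control cells (0.54, SE 0.09, adjusted p = 0.0078), against 0.796% of all probes called higher. In TPM1 all KD arrays lay above all control arrays on 7 of the 8 days, all but day −2. The siRNAs did not overlap in 19.6% of all probes on day 2 and in 10.9% on day 3. This share was not counted for days 0, 1, 4, 5 and 6.

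Averaged over the 8 days, 7 of the 13 probes were called higher in the KD and 0 lower by limma, against 6.37% of all probes called higher, 6.74% lower and 13.1% in either direction. At an unadjusted p under 0.05, and also with Benjamini-Hochberg adjustment, 10 were higher and 0 lower. The mean differences were 0.65 for CNN2 probe 2230433 (SE 0.04), 0.72 for CNN2 probe 5270446 (SE 0.08), 0.57 for TPM1 (SE 0.03), 0.53 for ACTG2 (SE 0.04), 0.50 and 0.41 for ACTA2 probes 60008 and 1230082 (SE 0.05 and 0.06) and 0.27 for TPM2 probe 520735 (SE 0.03). Each KD array was also set against the control array of its day and replicate number, which gives 24 pairs. The KD array was higher in 22 for TPM1 and for CNN2 probe 5270446, and in 21 for CNN2 probe 2230433. It was higher in 20 for TPM2 probe 520735, in 19 for TAGLN and in 18 for ACTG2 and for ACTA2 probe 60008. The count was 17 for ACTA2 probe 1230082 and for VCL, and 15 for ACTA2 probe 3390619. It was 9 for the second TPM2 probe, 8 for VIM and 7 for CNN1. Such pairs were not counted for all probes. The brightest ACTA2 probe, 3390619, was not called and differed by 0.21 (SE 0.05, adjusted p = 1), with means of 0.24, 0.45 and −0.06 in replicates 1, 2 and 3. TAGLN (0.34, SE 0.08), VCL (0.14, SE 0.04) and VIM (−0.04, SE 0.03) were not called. TAGLN, VCL and ACTA2 probe 3390619 were among the 10 higher at the laxer thresholds, and VIM was not.

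Single replicates decided some of these means. Without replicate 1, ACTA2 probe 60008 was no longer called (0.47, adjusted p = 0.0568), nor was probe 1230082 (0.43, adjusted p = 0.557). Probe 1230082 was also lost without replicate 2 (0.25, adjusted p = 1), as was CNN2 probe 5270446 (0.56, adjusted p = 0.474). Without replicate 3, the replicate that stood apart, TAGLN (0.48, adjusted p = 0.012) and ACTA2 probe 3390619 (0.35, adjusted p = 0.00929) were called as well, which makes 9 of the 13. TPM1, ACTG2, CNN2 probe 2230433 and TPM2 probe 520735 kept their call without each replicate.

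That the siRNA difference itself varied between days was tested as an interaction, which called 7 of the 13 probes against 7.11% of all probes. They were the 3 ACTA2 probes, ACTG2, CNN2 probe 2230433, TPM1 and TPM2 probe 520735. The mean difference of days 4 to 6 was smaller than that of days 0 to 2 in 5 of the 13 probes, against 2.82% of all probes, and by 1.04 (SE 0.12) in ACTA2 probe 60008. Without replicate 1 this contrast called 1 probe, without replicate 2 it called 2, and without replicate 3 it called 4.

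**Figure D3:**
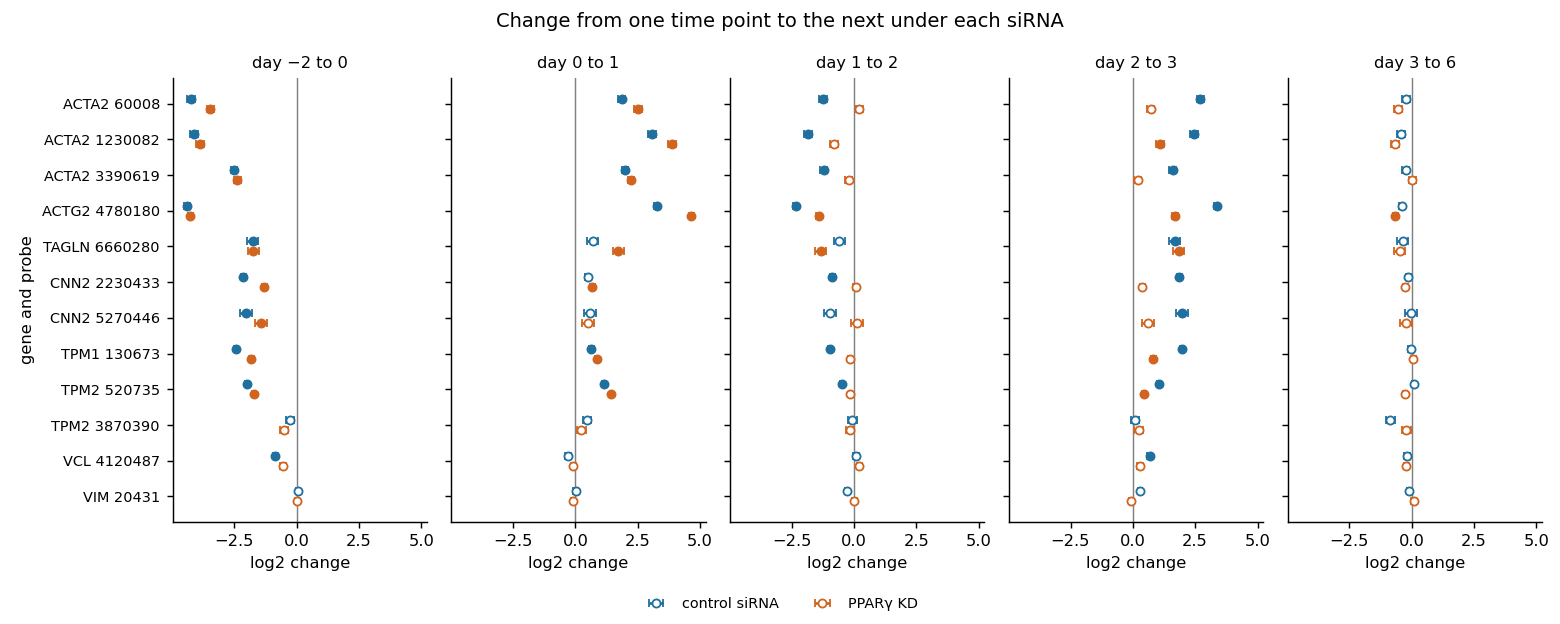
Fitted log2 change from one time point to the next for 12 probes, under control siRNA (blue) and in the PPARγ KD (orange), with bars of ± SE and filled points where called. The first step is a fall under both siRNAs for the actins, tropomyosins and calponin 2, and from day 1 to day 2 the control points of these genes lie further below 0 than the KD points.

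The probes of these genes moved along with each other over the 16 siRNA and day means, which share the same arrays and scaling. Pearson's r of the brightest ACTA2 probe was 0.98 with ACTG2, 0.97 with TPM2 probe 520735, 0.83 with TPM1, 0.79 with CNN2 probe 2230433, 0.55 with VCL and −0.10 with VIM. CNN2 probe 2230433 and TPM1 were closer to each other (0.97) than either was to ACTG2 (0.81 and 0.85). Among all probes above background on at least 3 arrays, the 5 of other genes closest to the brightest ACTA2 probe were ACTG2 (0.979), SH3BGRL3 (0.977), YIF1B (0.970), MAPK11 (0.967) and CD9 (0.967). The actins are near-identical in sequence, the probe sequences were not used here, and whether ACTA2, ACTG2 and skeletal ACTA1 signals share transcripts was not tested.

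Other genes of the actomyosin and adhesion machinery followed in part. Of 26 such genes on the array, counted by their brightest probe, 12 were called higher in the KD on day 2, against 11% of the probes above background on at least 3 arrays, as 25 of the 26 were. Their median was 0.53 against −0.12 for all probes. Averaged over all days 11 were called higher and 1 lower, against 14.5% of such probes called higher and 29.6% in either direction, with a median of 0.15 against −0.03. The highest were CAPG (0.55, SE 0.02), which caps actin filaments, and FLNC (0.55, SE 0.03), a filamin that crosslinks them, followed by the adhesion proteins PDLIM5 (0.39, SE 0.04) and ZYX (0.38, SE 0.03). MYLK, the kinase that activates smooth muscle myosin, was the one called lower (−0.36, SE 0.04). From day −2 to day 0 under control siRNA 14 of the 26 were called lower (median −0.61; 11.6% of such probes), and from day 2 to day 3 there were 12 called higher (median 0.60; 10.5%). The regulatory light chain MYL9, picked out after its values were seen, fell by 4.30 (SE 0.13) in that first step.

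Genes of the serum response factor pathway were called no more often over all days than other probes above background. Of the 19 on the array, 14 were above background on at least 3 arrays, and 2 were called higher and 1 lower in the KD over all days (median 0.06), against the 29.6% above. The LIM proteins FHL2 (0.59, SE 0.03) and FHL1 (0.38, SE 0.03) were higher, and the small GTPase RHOB was lower (−0.47, SE 0.03). On day 2, 4 were called higher and 1 lower, against 20.5% of such probes in either direction, SRF itself being higher by 0.64 (SE 0.09, adjusted p = 0.00116). From day −2 to 0 under control siRNA 7 were called lower, against 11.6% of such probes, and 1 higher. Of 7 other intermediate filament genes, PLEC1, whose product links such filaments to actin, was called higher over all days (0.29, SE 0.03) and the other 6 were not called, which is near the 13.1% of all probes.

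**Figure D4:**
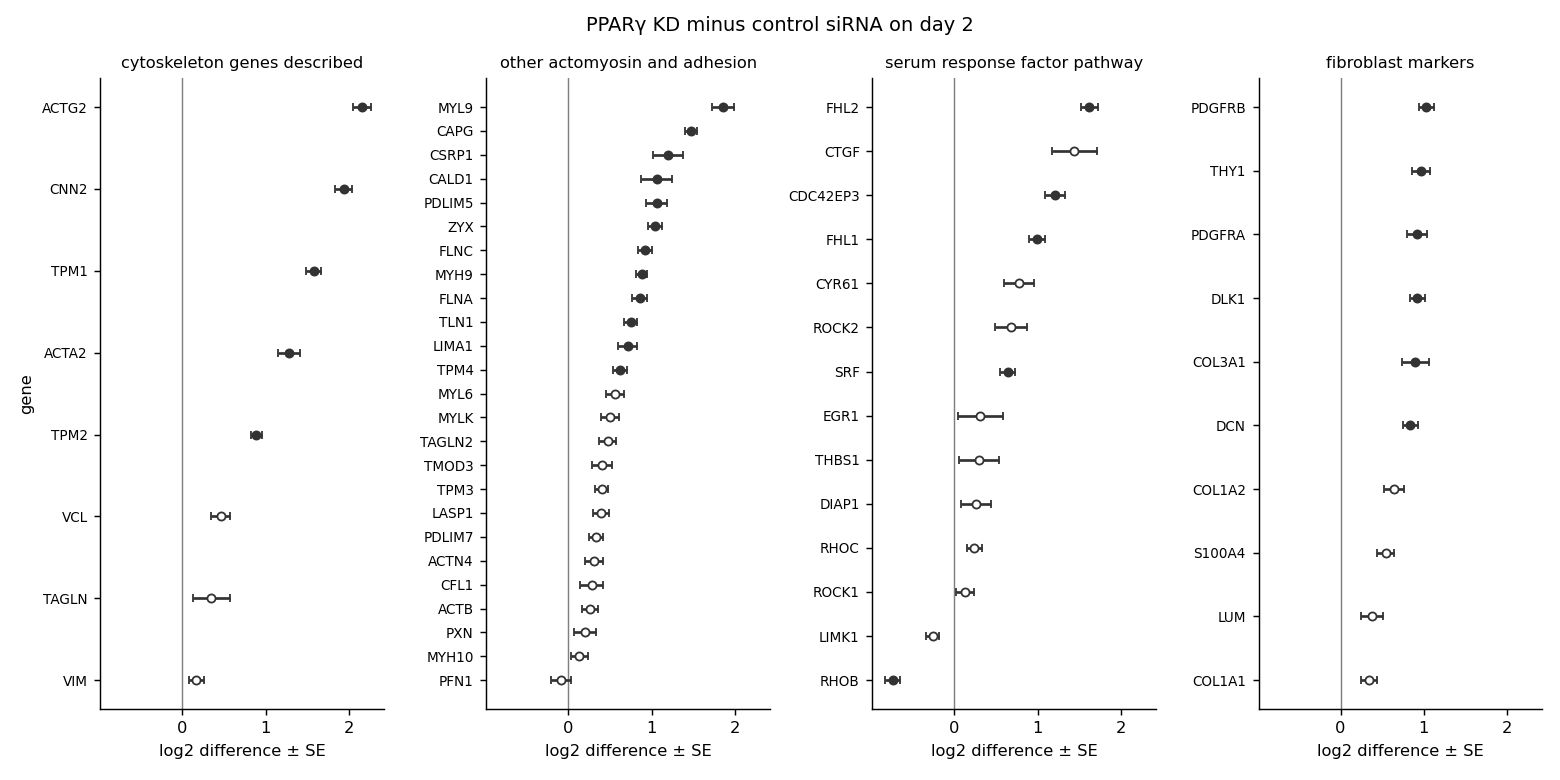
PPARγ KD minus control siRNA on day 2 (log2, bars ± SE) for the brightest probe of each gene above background on at least 3 arrays, in 4 groups of genes. Filled points were called; 5 of the 8 cytoskeleton genes drawn were called higher, with ACTG2 at 2.16, and VIM lay at 0.17.

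Markers of other cell types were read beside these changes. All 10 fat cell markers were called lower in the KD over all days (median −2.16), and their summed signal ran from 13.37 to 17.11 on the log2 scale on control arrays and from 12.07 to 15.02 on KD arrays. Of 10 fibroblast markers, 4 were called higher (DLK1 0.43, THY1 0.37, COL3A1 0.36, PDGFRB 0.34) and 1 lower (LUM −0.56), with summed signals of 15.57 to 16.90 in control and 16.15 to 17.16 in KD cultures. From day −2 to day 0 under control siRNA, 6 of the 10 fat cell markers were called higher. The part of a changing mix of cells in the results on the cytoskeleton was not tested.

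Of 8 markers of mature smooth muscle, 6, among them MYH11, MYOCD and DES, were above background on no array, LMOD1 on 2 and SMTN on 48. Their summed signal was 9.73 to 10.71 in control and 9.78 to 10.45 in KD cultures. The muscle actins were therefore measured in cultures without detected signal of MYH11, the myosin heavy chain of smooth muscle, or of MYOCD, myocardin. Each was read by its brightest probe. The brightest probes of TMSB4X and RHOA were above background on 0 arrays as well, and that of the fat cell marker FABP4 on 12. The part of the probes in such non-detection was not tested. None of 7 endothelial markers was above background on any array (summed signal 7.78 to 8.52 and 7.65 to 8.72), while 2 of 7 macrophage markers were, LYZS on 36 and CD14 on 40 arrays (7.99 to 9.60 and 8.19 to 9.42). Of 7 skeletal muscle markers, 3 were above background on some arrays, ACTA1 on 34 (7.85 to 9.11 and 8.16 to 9.26), and ACTA1 fell by 2.82 (SE 0.16) from day −2 to day 0 under control siRNA.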

How the data were processed

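The deposited file, written by BeadStudio 3.3.7 with no normalization, holds the mean bead intensity of every probe on each Illumina MouseRef-8 v1.1 array, with the bead SD and number. It also holds a deposited detection fraction, which is 1 minus the detection p-value. The array values carry no coordinates, and promoter positions are those of the RefSeq build. Intensities were background-corrected by normexp (limma 3.58.1, R 4.3.3, detection p-values, offset 16). Scaling followed the rank-invariant method that the study names: factors of 0.635 to 1.37 came from probes in the 50th to 90th percentile of mean signal that shifted by under 0.05 in relative rank. One linear model (lmFit, eBayes) on log2 values covered the 48 arrays, with a term for every combination of siRNA and day and a block for replicate number in place of the batch term of the study's methods. P-values were Bonferroni adjusted over 24613 probes. Samples were grouped by their titles. Deviations of same-numbered arrays from their group means correlated at 0.544 to 0.914 in 24 of 24 pairs, so the numbers were taken as pairs, although they did not tell replicates 1 and 2 apart (mean 0.781 between control replicate 1 and KD replicate 2). No 2 arrays were identical. The fits were tested on simulated data. The precision is limited by the array number and, for dim probes, by the background.

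All 13 probes of the 9 genes are reported. From each further gene list, the called genes with the largest mean siRNA difference, at most 5 per direction, are named by their brightest probe. The genes and lists were chosen with earlier results of these data known. Where a condition had no array above background for a probe, a lower bound of the fold is given: the mean of the brighter condition over the mean of a floor, which on each array is the dimmest signal that passed detection, or the probe's own signal if that is larger. Alternatives varied normalization, background correction, offset, filter, block, variance moderation, adjustment and replicates. Figures were drawn with matplotlib 3.10.9.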

Additional observations from a re-analysis of the deposited data

Results flagged for a closer look

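The siRNA difference changed with the day in 7 probes, tested by the interaction over all days (limma, Bonferroni adjusted). The values that follow are the mean difference of days 4 to 6 minus that of days 0 to 2, on the log2 scale. It was −1.04 for ACTA2 probe 60008 (1.21 early and 0.17 late), −0.88 for CNN2 probe 2230433 (1.24 and 0.36), −0.78 for ACTG2 (1.07 and 0.29), −0.53 for TPM1 (0.96 and 0.44) and −0.47 for TPM2 probe 520735 (0.56 and 0.08), all of them called. For ACTA2 probes 1230082 (−0.61) and 3390619 (−0.42) the interaction was called (adjusted p = 4.78e-05 and 0.00233) but this contrast was not (adjusted p = 1 for both). Groups of 3 arrays are too small for a check of single outlying arrays.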

How the results depend on the processing

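Of 705 values of single probes recomputed under other settings, 653 kept their direction or stayed uncalled, 37 lost their call, 15 gained one and none that was called changed sign. The 8 probes called higher in the KD on day 2 stayed between 7 and 9 under every setting run, and those called lower on control day 0 between 8 and 10. The replicate numbers were taken as pairs, although they did not tell replicates 1 and 2 apart. Leaving out the replicate block gave 9 calls over the 8 days in place of 16, 4 in the interaction in place of 7, 1 in the late against early contrast in place of 5, 4 and 1 from day 1 to 2 under control siRNA and in the KD in place of 7 and 2, and 1 on control day 6 against day −2 in place of 3. That last count was 5 with quantile normalization or an offset of 50, 6 without background correction and 9 with Benjamini-Hochberg adjustment, which also gave 34 calls over the days and 8 late against early. Median scaling gave 3 late against early and 1 in the KD from day 1 to 2, as did no moderation of the variance for the latter. Without single replicates the calls ranged from 10 to 14 over the days, 1 to 4 late against early, 4 to 6 in the interaction, 1 to 3 on control day 6, and 4 to 7 and 1 to 2 from day 1 to 2 under control siRNA and in the KD. The cause of these shifts was not tested. The BeadChip was not run as a block, since the columns do not name it.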
